A study of Mus musculus with 2 samples.

Results

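CD8 T cells without granzyme transcripts were taken from single-cell RNA sequencing of immune cells of a mouse tumour, by counts of transcripts in each cell. A cell barcode was kept with at least 1000 UMIs (unique molecular identifiers, each standing for 1 captured transcript) and at most 10% of them mitochondrial. It was a CD8 T cell with at least 1 UMI of Cd3d, Cd3e or Cd3g, at least 1 of Cd8a or Cd8b1, under 3 of the myeloid genes Lyz2 and Csf1r, and under 3 of the 5 cycling genes Top2a, Birc5, Ube2c, Ccnb2 and Mki67. Of 1090 such cells, the 118 with no UMI of Gzmk and none of Gzmb are described here, 26 of them control and 92 anti-PD-1 cells, out of 4495 kept barcodes in all. The members were thus chosen by their UMI counts of those genes. The other 972 CD8 T cells are called granzyme cells: 641 had a Gzmk UMI (14 control, 627 anti-PD-1) and 331 had Gzmb without Gzmk (36 control, 295 anti-PD-1).

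The cells were sorted as viable CD45+ cells from tumours of MC38, a colon carcinoma line of the mouse, in C57BL/6J mice. Tumours were injected intradermally at 4 sites per mouse and grew for 7 days; they were then injected with a control or with antibody to PD-1, an inhibitory receptor of T cells, at 200 µg per mouse per day, and taken on day 10. The labels do not say what the control injection held or how many mice were pooled. Each group is 1 library made with 10x Genomics 3' chemistry, so no difference between the groups was tested, and every interval below is a 95% interval that covers counting error only.

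A naive CD8 T cell circulates through lymph nodes with the homing receptor CCR7 and holds the transcription factors TCF-1 (Tcf7) and LEF-1. On meeting antigen it becomes an effector cell that makes granzymes, perforin and the chemokine CCL5 and loses that receptor. Memory cells and the stem-like cells described in tumours keep TCF-1 while they also carry marks of earlier activation. Naive cells also lack CCL5, whereas memory cells can hold CCL5 transcripts without granzymes.

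The share of CD8 T cells with no Gzmk or Gzmb UMI was 34.2% among control cells (26 of 76, exact binomial interval 23.7 to 46.0) and 9.07% among anti-PD-1 cells (92 of 1014, 7.38 to 11.0). Of all kept barcodes they were 2.21% (26 of 1174, 1.45 to 3.23) and 2.77% (92 of 3321, 2.24 to 3.39). Their share of the CD8 T cells was thus lower in the anti-PD-1 library, while their share of all kept cells differed by less than counting error. The anti-PD-1 share depends on depth: with each cell thinned to 1000 UMIs before the rule was applied it was 18.2% (170 of 936). All CD8 T cells together were 6.47% of kept control barcodes and 30.5% of kept anti-PD-1 barcodes.

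Depth was close between the sets of cells. The cells without granzyme UMIs had a median of 3167 UMIs in the control library (1386 to 7762) and 2779 in the anti-PD-1 library (1005 to 9447). The granzyme cells had medians of 3130.5 and 2839. In total the 26 control cells gave 88446 UMIs and the 92 anti-PD-1 cells 283077, so that 3 UMIs, the smallest count used as a level here, amount to 33.9 and 10.6 CPM, counts scaled to a fixed total per set of cells. Ribosomal protein genes took 39.7% of the UMIs in control cells without granzyme UMIs against 33.5% in control granzyme cells, and 35.9% against 28.7% in the anti-PD-1 library. The 2 libraries shared 4 kept barcodes, and none of them was a cell without granzyme UMIs.

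The limit of the rule is a single UMI. Just outside it stood 10 control and 71 anti-PD-1 cells with exactly 1 granzyme UMI. In cells with a Gzmk UMI its median count was 1 for control and 2 for anti-PD-1 cells, and in cells with a Gzmb UMI that of Gzmb was 6.5 and 6. Gzmk alone is therefore at the detection limit in many CD8 T cells: 239 of the 627 anti-PD-1 cells with Gzmk had exactly 1 UMI of it. Inside the rule, 8 of 26 cells in the control library had only 1 Cd8 UMI, as did 19 of the 92 anti-PD-1 cells, and 1 and 6 had only 1 Cd3 UMI. Granzyme A, which the rule does not use, had a UMI in 3 control and 22 anti-PD-1 cells.

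A few cells stood apart. In 1 control and 3 anti-PD-1 cells without granzyme UMIs there were at least 20 UMIs of Cst3, cystatin C, which dendritic cells make at a high level, and each of these 4 cells had only 1 Cd3 and 1 Cd8 UMI. The control cell held 344 UMIs of MHC class II genes (H2-Aa, H2-Ab1, H2-Eb1 and Cd74), the 3 anti-PD-1 cells 0, 86 and 725, and no other cell without granzyme UMIs held more than 2 in the control or 7 in the anti-PD-1 library. They held between 88.6% and 99.3% of the UMIs of those 4 genes in both libraries, 51.7% of the control and 28.6% of the anti-PD-1 Ccr7 UMIs, and all UMIs of Fscn1 and Ccl22, markers of migratory dendritic cells. Xcr1 and Clec9a, which mark type 1 dendritic cells, were at 0 in all of them. Whether these barcodes held a dendritic cell alone or together with a T cell was not tested, and the main results they touch are also given without them. Among the granzyme cells, 2 of the anti-PD-1 and none of the control library had 20 Cst3 UMIs.

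The genes named as marks of these cells gave a mixed picture. Cd8a and Cd8b1 are part of the rule; Cd8b1 was at 996 CPM in anti-PD-1 cells without and 1458 CPM in those with granzyme UMIs, and 7 control and 15 anti-PD-1 cells had Cd8a without Cd8b1. Tcf7 was at 136 against 33.5 CPM in the control and 81.2 against 19.8 CPM in the anti-PD-1 library, higher in the cells without granzyme UMIs in both. Granzyme M (Gzmm), named with it, had 8 UMIs in the control cells (90.5 CPM, against 5.58 CPM in granzyme cells). In the anti-PD-1 cells, however, it had 4 UMIs, at 14.1 CPM against 34.0 CPM in granzyme cells (log2 ratio -1.27, -3.17 to 0.14). With each cell thinned to 1000 UMIs the ratio was 0.05. Thinning could only lower the 4 UMIs, and a count under 3 is raised to 3, so that value is not read as a level. In the anti-PD-1 library Gzmm therefore did not mark the cells without Gzmk and Gzmb.

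Markers of other cell types were read as summed levels of fixed lists. The list for MHC class II and migratory dendritic cells was at 4523 against 268 CPM in control and 3144 against 225 CPM in anti-PD-1 cells, and at 322 against 268 CPM and 235 against 142 CPM without Cst3-high cells. The list for type 1 dendritic cells, which holds Cst3, was at 2985 against 424 CPM and 1547 against 593 CPM, and at 322 against 424 CPM and 466 against 457 CPM without those cells. In the anti-PD-1 library the list for CD4 and regulatory T cells summed to 141 CPM (101 to 192), with 2 cells holding a Cd4 and 3 a Foxp3 UMI, against 92.9 CPM in granzyme cells; in the control it summed to 102 against 496 CPM. No UMI of the γδ T-cell list was found in the anti-PD-1 cells (limit 13.0 CPM) and 1 in the control cells. B-cell genes were at 7.07 and 0 CPM in anti-PD-1 and control cells, neutrophil genes at 152 and 11.3 CPM, and tumour epithelial genes at 7.07 and 0 CPM. The macrophage and monocyte list, which holds the T-cell genes Ly6c2 and Ccr2, summed to 1787 CPM against 4092 CPM in anti-PD-1 granzyme cells. Natural killer (NK) genes were at 1010 CPM (897 to 1134) against 631 CPM in the anti-PD-1 and 848 against 669 CPM in the control library, and at 832 against 625 CPM and 682 against 669 CPM without Cst3-high cells. Cells with a Ncr1 or Klrb1c UMI and no Cd3 UMI held 12252 and 11182 CPM. Myeloid cells (no Cd3 UMI, at least 3 Lyz2 and Csf1r UMIs) held 8109 and 8800 CPM of the list, which includes Fcer1g and Tyrobp. The defining NK genes Ncr1 and Klrb1c were at 17.7 and 21.2 CPM in the anti-PD-1 cells, near the 10.6 CPM of 3 UMIs.

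**Figure D1:**
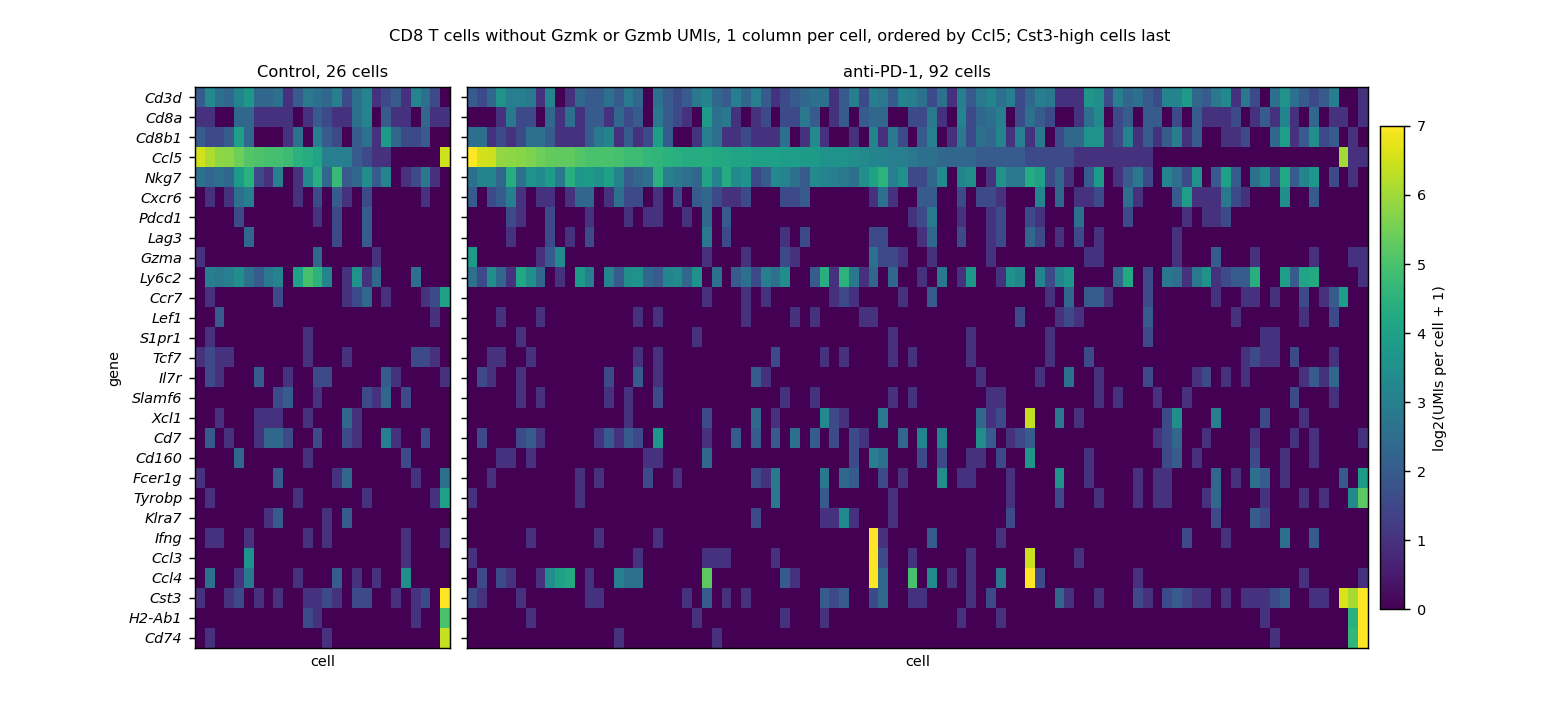
UMIs of selected genes in each of the 26 control and 92 anti-PD-1 CD8 T cells without Gzmk or Gzmb UMIs. Each column is 1 cell, ordered by Ccl5 with the Cst3-high cells last; colour gives log2(UMIs + 1) and saturates at 7. Ccl5 runs from 91 UMIs (control) or 133 UMIs (anti-PD-1) down to 0, the MHC class II UMIs sit in the last columns, and a single anti-PD-1 column carries most of Ifng.

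The order of cells by Ccl5 shows how far these cells are from a uniform set. Ccl5 ranged from 0 to 91 UMIs per cell in the control library (median 17.5) and from 0 to 133 in the anti-PD-1 library (median 6.5). The granzyme cells had medians of 16 and 32. At least 5 Ccl5 UMIs were found in 17 of 26 cells of the control library and 49 of the 92 anti-PD-1 cells, and none in 5 and 19. Most cells without Gzmk and Gzmb thus held transcripts of this effector and memory chemokine. Myeloid cells, taken as a background for free RNA, held Ccl5 at 446 CPM in the anti-PD-1 library, against 5009 CPM in these cells.

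The cells without granzyme UMIs were then set beside the granzyme cells of the same library, with UMIs summed over cells, expressed as CPM and compared as a log2 ratio (granzyme-free over granzyme). A gene was measured with at least 20 UMIs over both sets, and a count under 3 was raised to 3. The rule chose the cells by granzyme transcripts, which go with other effector genes, so these ratios describe the cells and test nothing. Over all 7169 measured genes in the anti-PD-1 library, 6.25% were over 2-fold higher and 3.67% over 2-fold lower in the cells without granzyme UMIs; over 1589 in the control library the shares were 3.21% and 9.82%. The anti-PD-1 counts, 448 higher and 263 lower, were 192 and 474 without the cell with most UMIs of each gene in each set. Leaving out a cell takes a larger part of the smaller set, the cells without granzyme UMIs, so part of that shift is built in. With thinning to 1000 UMIs before the rule the counts were 132 and 157. With totals that leave out ribosomal and mitochondrial genes, 79.4% of the anti-PD-1 genes past 2-fold were higher instead of 63.0%, and with median-of-ratios factors 50.1%; in the control library 38.0% instead of 24.6% were higher without ribosomal and mitochondrial genes. The median gene lay at 0.06 in the anti-PD-1 and -0.11 in the control library, and at 0.23 and 0.04 with totals that leave out those genes.

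Homing and naive-type genes were higher in the cells without granzyme UMIs. Ccr7, the receptor that guides T cells to lymph nodes (chr11:99144196-99155077, minus strand), was at 328 against 22.3 CPM in the control and 173 against 29.5 CPM in the anti-PD-1 library. The log2 ratios were 3.88 (2.37 to 5.85) and 2.55 (2.02 to 3.08); without the Cst3-high cells, which share this gene, they were 2.96 and 3.16. It was found in 23.9% of anti-PD-1 cells without granzyme UMIs, 3.04% of granzyme cells and 2.1% of myeloid cells, whose median depth was 4446 UMIs. Tcf7, which encodes TCF-1 (chr11:52252371-52283014, minus strand), was found in 20.7%, 5.42% and 0.525% of the same sets. Its log2 ratios were 2.02 (0.49 to 3.72) from 18 UMIs in the control and 2.04 (1.27 to 2.76) in the anti-PD-1 library. The control count is under the 20 UMIs set below for a measured gene.

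Rarer genes of resting T cells had the highest ratios of the naive list and rested on few cells. Dapl1 was at 117 against 2.08 CPM in the anti-PD-1 library, a log2 ratio of 5.81 (4.54 to 7.35) from 33 UMIs in 7 cells. Igfbp4 was at 53.0 against 2.08 CPM (4.67, 3.22 to 6.32), from 15 UMIs in 5 cells. Bach2, a repressor that restrains effector differentiation, was at 42.4 against 5.55 CPM (2.93, 1.72 to 4.11), and Klf2, a factor that drives S1pr1, at 31.8 against 8.32 CPM (1.93, 0.64 to 3.09). Each of these 4 genes had 5 UMIs or fewer in the control cells.

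Other genes of the naive list differed little. Lef1, the partner of TCF-1, was at 77.7 against 61.7 CPM in the anti-PD-1 library (log2 ratio 0.33, -0.38 to 0.98) and S1pr1, the receptor for exit from tissue, at 31.8 against 27.4 CPM. Satb1 and Foxp1, chromatin and quiescence factors of resting T cells, had log2 ratios of 0.59 (0.15 to 1.01) and 0.63 (0.06 to 1.17). Ly6c1 was at 7.07 against 28.4 CPM, from 2 UMIs in the cells without granzyme UMIs. Of the 15 genes of the list, 13 were measured in the anti-PD-1 library, 11 of them above 0, 7 over 2-fold higher and 1 over 2-fold lower, with a median log2 ratio of 1.52. That median was 1.37 without the Cst3-high cells and 0.46 over the genes with at least 50 UMIs, a filter that drops Igfbp4 and other rare genes. With each cell thinned to 1000 UMIs it was 0.70, and 0.15 where the rule was applied after thinning. In the control library 4 were measured (Ccr7, Foxp1, Gpr183 and Satb1), all above 0 and 3 over 2-fold higher, with a median of 1.48.

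The memory list, which holds Tcf7, Xcl1 and Gzmm, did not move as a block. Il7r, the receptor for the survival cytokine IL-7, was at 134 against 60.7 CPM in the anti-PD-1 library (log2 ratio 1.15, 0.60 to 1.66) but at 181 against 206 CPM in the control library (-0.19, -1.14 to 0.69). Slamf6, a surface mark of stem-like exhausted cells, went the other way, at 169.6 against 44.6 CPM in the control (1.93, 0.60 to 3.37) and 67.1 against 62.0 CPM in the anti-PD-1 library (0.11, -0.65 to 0.80). Cd44, Cd27, Cd28, Bcl2, Il2rb, Eomes, Emb and Ltb, genes of activated and memory T cells, had log2 ratios between -0.16 and 0.22 in the anti-PD-1 library. Cxcr3, a chemokine receptor of effector and memory cells, was at 141 against 247 CPM (-0.81). Of the 18 genes of the list, 15 were measured in the anti-PD-1 library, with 9 above 0, 3 over 2-fold higher and 1 over 2-fold lower. Their median was 0.06, the same as that of all genes. In the control library the 12 measured had a median of -0.19, but it was 0.56 with each cell thinned to 1000 UMIs before the rule.

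Against the Gzmk cells and the Gzmb cells separately, Ccr7, Il7r and Tcf7 had log2 ratios above 0 in the anti-PD-1 library. The log2 ratio of Ccr7 was 3.72 (3.00 to 4.46) against cells with Gzmk and 1.42 (0.84 to 1.99) against cells with Gzmb and no Gzmk, and that of Il7r 1.75 (1.15 to 2.32) and 0.35 (-0.23 to 0.90), the last an interval that includes no difference. Without Cst3-high cells, which held 43 of the 85 Ccr7 UMIs in granzyme cells, Ccr7 gave 4.10 (3.19 to 5.08) and 2.13 (1.36 to 2.91), from 15 UMIs in the Gzmk and 27 in the Gzmb cells. Tcf7 gave 2.08 and 1.96. The Gzmk cells were the lowest of the 3 sets for Ccr7 and Il7r, with 13.2 and 40.0 CPM.

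**Figure D2:**
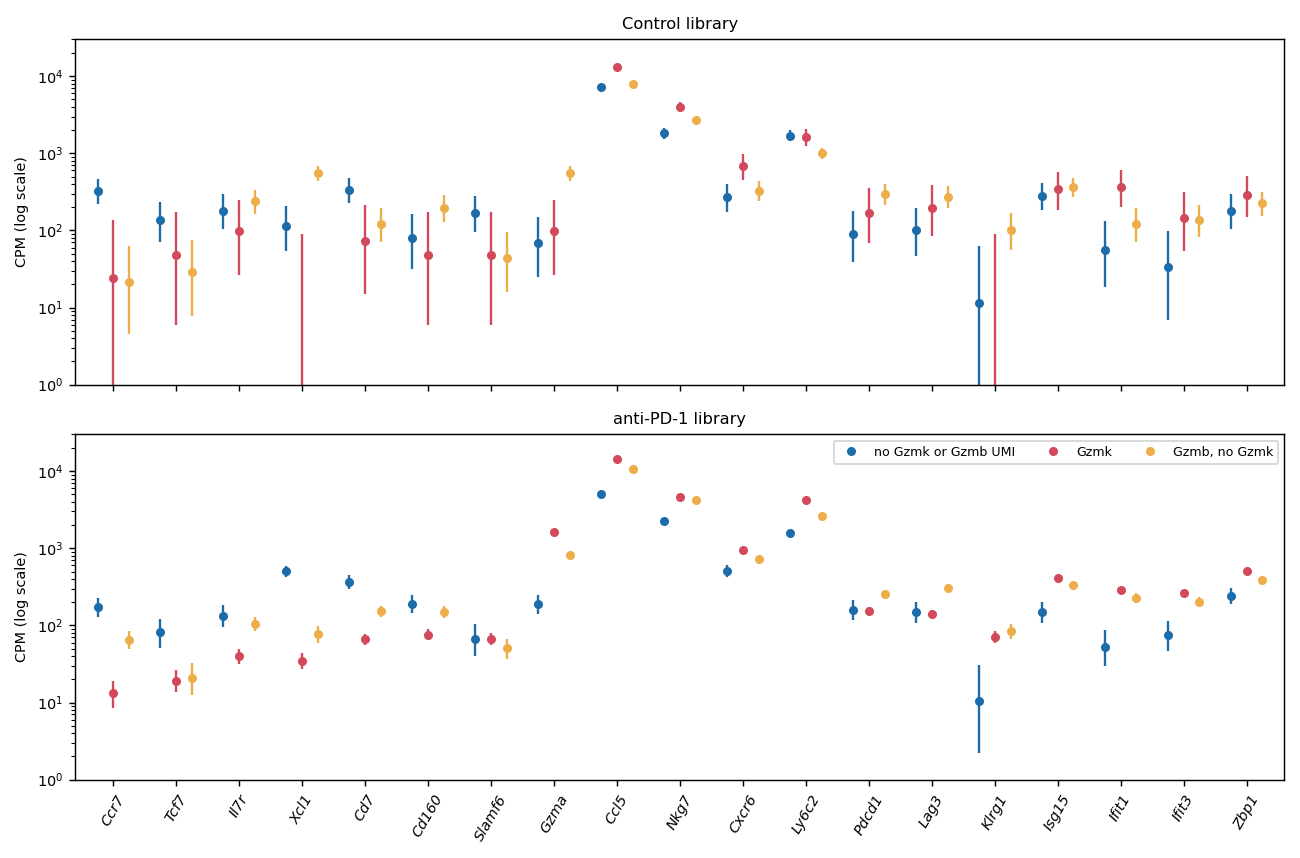
Levels of selected genes in CD8 T cells without Gzmk or Gzmb UMIs, with Gzmk, and with Gzmb but no Gzmk, in the control library (26, 14 and 36 cells) and the anti-PD-1 library (92, 627 and 295 cells). Points are CPM of UMIs summed over cells on a log axis that starts at 1 CPM, bars are 95% counting intervals, and a level of 0 shows only its bar. In the anti-PD-1 library Ccr7, Tcf7, Xcl1 and Cd7 are highest in the cells without granzyme UMIs, and Gzma, Ccl5, Nkg7, Klrg1 and Ifit1 are lowest there.

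Effector genes outside the rule were lower in the cells without granzyme UMIs. Gzma, granzyme A, was at 67.8 against 446 CPM in the control and 187 against 1370 CPM in the anti-PD-1 library, with log2 ratios of -2.72 (-4.21 to -1.53) and -2.87 (-3.29 to -2.48). In the control the share of cells with a Gzma UMI did not differ in the same way, at 3 of 26 cells without and 6 of 50 cells with granzyme UMIs, and 4 Gzmb cells held 76 of the 80 Gzma UMIs of the granzyme cells. Nkg7, a protein of cytotoxic granules, was at 1809 against 2984 CPM and 2293 against 4495 CPM (-0.72 and -0.97). Klrg1, an inhibitory receptor of terminal effector cells, had 3 UMIs in the anti-PD-1 cells, 10.6 against 74.9 CPM (-2.82, -5.11 to -1.25), and 1 UMI in the control cells. These 3 genes were lower in both libraries, though for Klrg1 the control count is too low to size.

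Ccl5 was lower by far less in the control than in the anti-PD-1 library: 7202 against 9163 CPM (-0.35, -0.48 to -0.21) and 5009 against 13140 CPM (-1.39, -1.47 to -1.31). Ly6c2, a surface protein of effector and memory CD8 T cells, was at 1685 against 1143 CPM in the control (0.56) and at 1579 against 3721 CPM in the anti-PD-1 library (-1.24). For both genes the level in the cells without granzyme UMIs was close between the libraries or higher in the control, and that in the granzyme cells was higher in the anti-PD-1 library. Genes of migration and contact were lower in the anti-PD-1 library: Cxcr6 at 509 against 880.1 CPM (-0.79), the death ligand Fasl at 91.8 against 218 CPM (-1.25), and Lgals3, galectin-3, at 314 against 822 CPM (-1.39). Perforin (Prf1) had 1 and 5 UMIs in the 2 libraries, too few to describe. The cytotoxic list had 29 of 32 genes measured in the anti-PD-1 library, 23 below 0, 11 over 2-fold lower and 2 over 2-fold higher, with a median of -0.72; in the control library 21 of 23 measured were below 0 and 11 over 2-fold lower, with a median of -0.98. In the control comparison 1 cell with Gzmb held 1865 of the 6048 UMIs of this list in granzyme cells.

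Inhibitory and costimulatory receptors, which antigen stimulation induces, gave unlike ratios in the libraries; the difference was not tested. In the control library Pdcd1, which encodes PD-1, was at 90.5 against 268 CPM (log2 ratio -1.57, -2.86 to -0.47), Lag3 at 102 against 257 CPM (-1.33, -2.55 to -0.29), Tnfrsf9 (4-1BB) at 79.1 against 769.6 CPM (-3.28, -4.62 to -2.20) and Tnfrsf4 (OX40) at 56.5 against 552 CPM (-3.29). In the anti-PD-1 library the same genes were at 159 against 187 CPM (-0.23, -0.71 to 0.21), 148 against 193 CPM (-0.38, -0.87 to 0.07), 198 against 218 CPM (-0.14, -0.56 to 0.26) and 138 against 118 CPM (0.22, -0.30 to 0.70). Each of the 4 intervals in the anti-PD-1 library includes no difference. Ctla4 and Tnfrsf18 (GITR) followed the same pattern, at 204 against 535 CPM and 283 against 686 CPM in the control and at 265 against 252 CPM and 272 against 270 CPM in the anti-PD-1 library. Havcr2, which encodes TIM-3 and marks terminal exhaustion, was at 17.7 against 52.3 CPM in the anti-PD-1 library (-1.57, -3.21 to -0.31), from 5 UMIs. Of this list 10 genes were measured in the control library, 9 of them over 2-fold lower (median -1.31); in the anti-PD-1 library 17 were measured, 3 over 2-fold higher and 3 over 2-fold lower (median 0.07). The anti-PD-1 median was 0.41 against the Gzmk cells and -0.61 against the Gzmb cells, so its value near 0 joins comparisons of opposite sign. Regulatory T cells also carry several of these receptors, and the list for CD4 and regulatory T cells, given above, was at 102 against 496 CPM in the control (629.7 CPM in its Gzmb cells) and at 141 against 92.9 CPM in the anti-PD-1 library; its part in these ratios was not tested.

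Among genes of other roles, Cd7 and Txk were higher in both libraries, while Xcl1 and Ikzf2 went opposite ways. Cd7, a surface protein of T and NK cells, was at 339 against 112 CPM in the control (1.60, 0.74 to 2.50) and 367 against 92.9 CPM in the anti-PD-1 library (1.98, 1.64 to 2.32). Txk, a Tec-family kinase, was at 181 against 94.8 CPM (0.93, -0.15 to 2.01, which includes no difference) and 187 against 90.1 CPM (1.05, 0.60 to 1.49). Xcl1, the chemokine that attracts type 1 dendritic cells and a member of the memory list, was at 505 against 48.2 CPM in the anti-PD-1 library (3.39, 3.04 to 3.74); 1 cell held 81 of its 143 UMIs, and without the cell with most Xcl1 UMIs in each set the ratio was 2.43. Among control cells Xcl1 was lower, at 113 against 424 CPM (-1.91, -3.02 to -0.95). The control granzyme cells held Xcl1 mainly in the 18 cells with 10 or more Gzmk and Gzmb UMIs (867 CPM). Those with fewer held at most 53.4 CPM. A single control Gzmb cell held 78 of the 622 memory-list UMIs of the granzyme cells. How much of the control Xcl1 lay in that cell was not counted. Ccl1 was at 159 against 1.39 CPM in the anti-PD-1 library (6.84, 5.39 to 8.78), with 45 UMIs in 7 cells. Ikzf2, which encodes Helios, was at 265 against 126 CPM in the anti-PD-1 (1.07) and 249 against 524 CPM in the control library (-1.08); against Gzmk cells alone it gave 2.33 and against Gzmb cells -0.11.

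Interferon-stimulated genes were lower in the cells without granzyme UMIs. These genes are switched on through the interferon receptors by factors of the IRF family and others, which bind promoter elements of repeated GAAA. Ifit1, an antiviral RNA-binding protein, was at 56.5 against 178 CPM in the control (-1.66) and 53.0 against 266 CPM in the anti-PD-1 library (-2.33, -3.17 to -1.60). Ifit3, its partner, was at 33.9 against 139 CPM (-2.04, from 3 UMIs in the cells without granzyme UMIs) and 74.2 against 243 CPM (-1.71, -2.41 to -1.09). Isg15, a ubiquitin-like modifier, was at 283 against 357 CPM (-0.34) and 148 against 389 CPM (-1.39, -1.87 to -0.95). Usp18, the protease that removes ISG15, was at 38.9 against 139.7 CPM in the anti-PD-1 library (-1.85, -2.86 to -0.99), and Phf11b at 113 against 276 CPM (-1.29, -1.84 to -0.78).

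Of the 39 genes of the list, 36 were measured in the anti-PD-1 library, and 33 of them were below 0. None was over 2-fold higher and 17 were over 2-fold lower, beside 3.67% of all genes. Of all 7169 measured genes, 1069 had under 3 UMIs in the cells without granzyme UMIs, against 3 of the 36. Such counts were raised to 3, which limits how low their ratios could fall. The list median was -0.89, beside 0.06 for all genes. The median was -1.04 against the Gzmk cells and -0.65 against the Gzmb cells. Among control cells 17 of 19 measured were below 0, 4 over 2-fold lower, and the median was -0.47. The list summed to 6666 against 11201 CPM in the anti-PD-1 and 5495 against 8750 CPM in the control library. Irf7 and Ifi27l2a, well-counted members of the list, had log2 ratios of -0.52 and -0.49, closer to 0 than the median, and Zbp1 was near it at -0.94. Gimap7, a GTPase of lymphocytes, was also among the genes of lowest ratio, at 117 against 426 CPM (-1.87). The 3 interferon-induced membrane proteins Ifitm1, Ifitm2 and Ifitm3, not on the list, were higher, at 1.24, 1.18 and 1.63, and at 0.53, 0.66 and 0.77 without the Cst3-high cells.

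Promoters of 4 of these genes are shown because they carry the motif that IRF factors recognise. Each stretch is the 160 bases before a RefSeq start in GRCm38.p6, the build named mm10 by the submitters, written 5′ to 3′ on the strand of the gene, with matches to GAAA, NN, GAAA (a pair of GAAA with any 2 bases between) on either strand in capitals.
Ifit1, chr19:34640729-34640888, plus strand: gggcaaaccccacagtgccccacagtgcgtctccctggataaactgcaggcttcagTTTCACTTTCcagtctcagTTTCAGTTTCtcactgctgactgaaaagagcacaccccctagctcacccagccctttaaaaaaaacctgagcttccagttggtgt
Ifit3, chr19:34583369-34583528, plus strand: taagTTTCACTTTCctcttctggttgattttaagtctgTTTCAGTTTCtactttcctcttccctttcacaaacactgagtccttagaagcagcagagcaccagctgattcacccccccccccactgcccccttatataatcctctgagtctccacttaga
Isg15, chr4:156200819-156200978, minus strand: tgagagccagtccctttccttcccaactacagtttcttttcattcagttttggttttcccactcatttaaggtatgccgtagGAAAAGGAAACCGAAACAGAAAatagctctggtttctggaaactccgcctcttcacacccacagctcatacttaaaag
Phf11b, chr14:59341331-59341490, minus strand: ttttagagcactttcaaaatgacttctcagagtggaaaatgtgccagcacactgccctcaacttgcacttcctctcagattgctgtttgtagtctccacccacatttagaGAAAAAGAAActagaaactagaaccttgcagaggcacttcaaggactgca
Ifit1 and Ifit3 each hold 2 matches, written as TTTC on the strand shown, Isg15 holds 3 that overlap and Phf11b holds 1 nearest the start, 50 bases before it. The motif was searched on both strands in the 250 bases before the start. It was found in 15 of the 30 promoters of the list that matched the table by symbol (50.0%) and in 978 of all 32851 promoters (2.98%). Among measured genes it was in 7 of 13 over 2-fold lower (53.8%) and 6 of 14 others (42.9%). A match describes letters and does not show that a factor was bound.

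Genes of the T-cell receptor complex and its signalling outside the rule were lower in the anti-PD-1 library, with all 12 measured below 0, 1 over 2-fold lower (Cd247, the zeta chain, at 81.2 against 200.3 CPM) and a median of -0.37; the 9 measured in the control library had a median of -0.64. Immediate early genes, which respond to stimulation and also to tissue handling, had 15 of 18 above 0, 4 over 2-fold higher and a median of 0.53; Zfp36 was at 95.4 against 24.3 CPM (1.97, and 1.50 without the Cst3-high cells), Dusp1 at 251 against 124 CPM (1.02) and Junb at 1466 against 975 CPM (0.59). In the control library 11 of 12 were above 0 but none past 2-fold (median 0.22). Genes of glycolysis and hypoxia were lower in the control, with 13 of 13 below 0 and a median of -0.85 (Gapdh 1357 against 2186 CPM, Pkm 328 against 736 CPM), and had a median of -0.14 over 23 genes in the anti-PD-1 library. Tissue residency genes had a median of -0.15 in the anti-PD-1 library, and Itgae, the CD103 integrin of resident cells, had no UMI in the cells without granzyme UMIs of either library. Medians were 0.06 for heat shock, 0.18 for cell cycle and 0.10 for cytokine receptor genes.

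**Figure D3:**
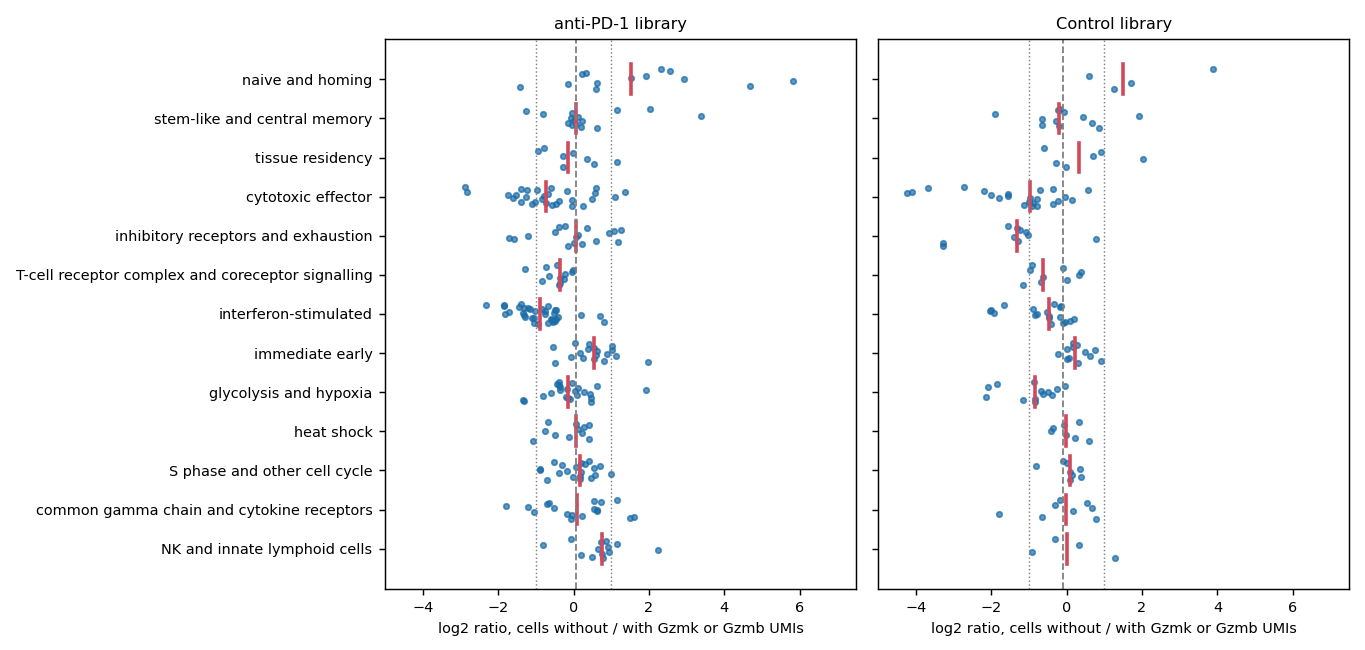
Log2 ratio of CPM between CD8 T cells without and with Gzmk or Gzmb UMIs for the genes of each list, in the anti-PD-1 library and the control library. Points are genes with at least 20 UMIs over both sets, red bars the list medians, the dashed line the median of all genes and dotted lines 2-fold. The naive list lies to the right (medians 1.52 and 1.48) and the cytotoxic list to the left (-0.72 and -0.98) in both libraries.

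The granzyme cells were next divided by their granzyme UMIs, to see whether the cells at 0 continue a trend. In the anti-PD-1 library 92 cells had 0, 71 had 1, 189 had 2 to 4, 286 had 5 to 9 and 376 had 10 or more Gzmk and Gzmb UMIs together, with median depths of 2779, 2257, 2454, 2669 and 3279 UMIs. Cells with 1 granzyme UMI were thus the shallowest and those with 10 or more the deepest. Tcf7 was at 81.2, 74.6, 33.8, 14.8 and 10.1 CPM over the 5 sets, lower at each step. Ccr7 was at 173, 64.0, 13.9, 7.40 and 43.3 CPM, the last 12.4 CPM without Cst3-high cells.

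For Tcf7 the cells with 1 granzyme UMI were within counting error of those with none (40.8 to 125 against 51.5 to 122 CPM). For Xcl1 they were not: it was at 505, 101, 53.7, 18.5 and 56.3 CPM. Gzma was higher at each step, at 187, 235, 591, 812 and 2134 CPM, and so was Klrg1, at 10.6, 26.7, 47.8, 55.5 and 103 CPM. Ccl5 was at 5009, 7539, 12262, 13984 and 13722 CPM and Nkg7 at 2293, 4079, 4294, 4551 and 4591 CPM, with little difference among the sets above 4 granzyme UMIs. The interferon-stimulated list summed to 6666, 7288, 10955, 11820 and 11458 CPM, and Ifit1 to 53.0, 144, 205, 334 and 265 CPM. Slamf6, at 67.1, 85.3, 81.6, 67.8 and 48.4 CPM, was no higher in the cells without granzyme UMIs than in those with 1 to 9. The steps of Gzma and Xcl1 were not seen in the control library, where sets of 26, 10, 13, 9 and 18 cells held Gzma at 67.8, 0, 1149, 36.5 and 422 CPM and Xcl1 at 113, 0, 53.4, 0 and 867 CPM. Nor was the order of Ccl5, at 7202, 5734, 15231, 12075 and 6737 CPM. Nkg7, at 1809, 3090, 2993, 4487 and 2461 CPM, and Ifit1, at 56.5, 172, 107, 511 and 105 CPM, also departed from it. Tcf7, at 136, 68.7, 80.2, 36.5 and 0 CPM, and Ccr7, at 328, 34.3, 26.7, 0 and 23.4 CPM, were highest at 0 granzyme UMIs there too.

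**Figure D4:**
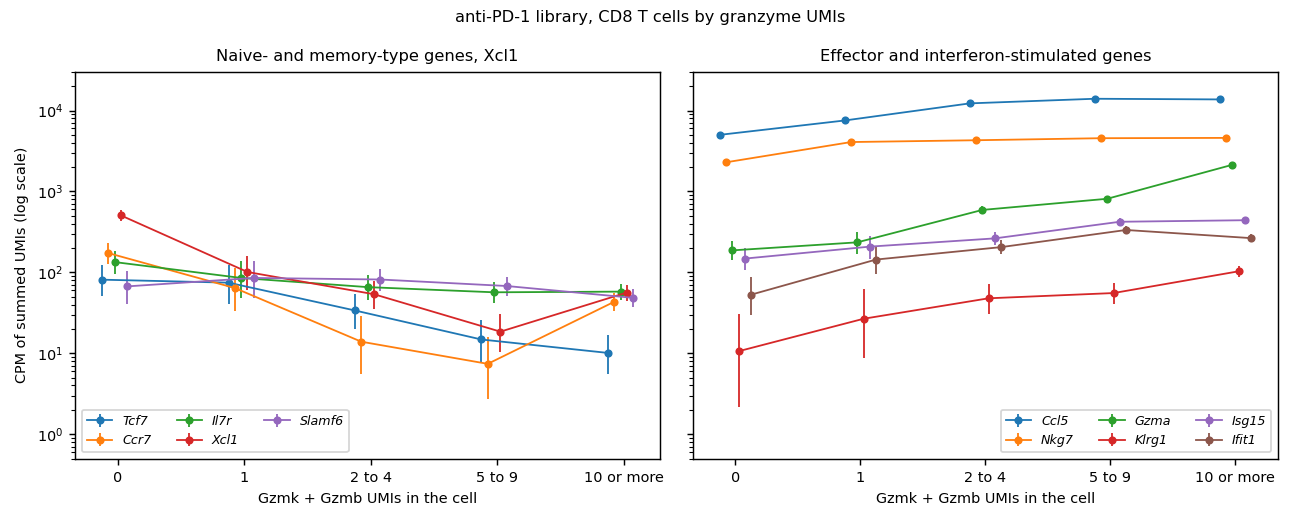
Levels of naive- and memory-type genes with Xcl1 (left) and of effector and interferon-stimulated genes (right) in anti-PD-1 CD8 T cells with 0, 1, 2 to 4, 5 to 9 and 10 or more Gzmk and Gzmb UMIs (92, 71, 189, 286 and 376 cells). Points are CPM of summed UMIs on a log axis and bars 95% counting intervals. Tcf7 goes from 81.2 to 10.1 CPM and Gzma goes from 187 to 2134 CPM along the axis.

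Within the anti-PD-1 cells without granzyme UMIs, cells with more naive-list genes held lower levels of Ccl5, Nkg7, Gzma, Pdcd1 and Lag3, though most of them still held Ccl5 and Nkg7 UMIs. With the 3 Cst3-high cells left out, 15 cells held no gene of the naive list, 23 held 1 and 51 held 2 or more. These are ranges of a count, not types, and 23 cells lay 1 gene under the last range. Their median depths were 1794, 2642 and 3137 UMIs, so that cells with more naive-list genes were also deeper. Ccl5 was at 13962 CPM (12660 to 15362), 6265 CPM (5670 to 6906) and 3036 CPM (2782 to 3307) over these ranges, with medians of 21, 9 and 3 UMIs per cell, against the order of depth. Of the 51 cells, 36 still had a Ccl5 UMI and 47 a Nkg7 UMI. At the myeloid background of Ccl5 given above, a cell of this depth could hold a Ccl5 UMI from free RNA alone. How many of these UMIs came from free RNA was not tested, and no background is given for Nkg7. The summed Ccl5 level of the 51 cells, 3036 CPM, lay above that background. Pdcd1 was at 531, 217 and 86.6 CPM and Lag3 at 398, 217 and 92.3 CPM. Gzma was at 829, 170.2 and 86.6 CPM, while Il7r, absent from the 15 cells, was at 77.3 and 190.5 CPM in the others. Cxcr6, at 696, 712 and 444 CPM, and Ly6c2, at 1559, 1516 and 1737 CPM, did not fall at each step.

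At least 2 naive-list genes were found in 55.4% of anti-PD-1 cells without and 38.5% of cells with granzyme UMIs, and with every cell thinned to 1000 UMIs in 27.2% and 7.38%. The control shares were 76.9% and 44.0%, and 30.8% and 18.0% after thinning. There the 19 control cells with 2 or more naive genes, the Cst3-high cell left out, still held Ccl5 at 7279 CPM, above the 3 cells with none (4662 CPM). The order of Ccl5 seen in the anti-PD-1 cells was thus not seen in the 25 control cells, whose lower ranges hold 3 cells each. Nkg7 fell at each step there, at 4954, 2582 and 1421 CPM, as did Cxcr6, at 971, 258 and 192 CPM. Pdcd1 fell too, at 194, 129 and 79.8 CPM, from 2, 1 and 5 UMIs. Gzma, at 0, 516 and 31.9 CPM, Lag3, at 583, 0 and 47.9 CPM, and Ly6c2, at 1263, 2840 and 1820 CPM, did not.

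Transcripts of the NK list marked a further range of cells. The list is not particular to NK cells. After thinning, 91.2% of anti-PD-1 and 93.4% of control myeloid cells held at least 2 of its genes. It also holds Gata3 and Eomes, the latter named above among genes of activated and memory T cells. Of the same 89 anti-PD-1 cells, 36 held no gene of the NK list, 24 held 1 and 29 held 2 or more. The 29 cells held Fcer1g, an adaptor chain of NK receptors, at 671 CPM and Klra7, a Ly49 receptor, at 248 CPM, both of the list that chose them. Outside that list they held Ikzf2 at 578 CPM, against 129.9 CPM of Ikzf2 in the 36 cells with none. They held 2 UMIs of Pdcd1 and 2 of Lag3 in all (20.6 CPM each), against 229.8 and 179.8 CPM in the 36 cells. Cd8b1 was at 908 against 1119 CPM, with a UMI in 23 of 29 and 32 of 36 cells. In 20 cells 2 or more genes of both lists were present, with Ccl5 at 1431 CPM and Ikzf2 at 565 CPM. At least 2 NK-list genes were found in 32.6% of cells without and 17.5% of cells with granzyme UMIs (18.5% and 5.53% after thinning); in the control library in 38.5% and 18.0% (7.69% and 6.00%). How much of this came from barcodes that held an NK or myeloid cell beside a T cell, or from free RNA, was not tested.

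A single anti-PD-1 cell carried most of 3 cytokine transcripts. With 3510 UMIs in total, 4 of Cd8a and 8 of Cd8b1, it held 231 of the 250 Ifng UMIs, 300 of 397 of Ccl3 and 536 of 841 of Ccl4 found in the 92 cells, and no Xcl1. Another cell, with 4240 UMIs, held the 81 Xcl1 UMIs given above, and yet another, with 5133 UMIs, 27 of the 33 Gzmc UMIs. In all, 11 of the 92 cells had an Ifng UMI, 12 a Ccl3 UMI and 26 a Ccl4 UMI. Sums of these genes therefore describe 1 cell more than the set.

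Between the libraries, 2079 genes had at least 20 UMIs over the 118 cells, of which 9.91% were over 2-fold higher and 2.98% over 2-fold lower in the anti-PD-1 cells, with a median log2 ratio of 0.13. The median was 0.04 with totals that leave out ribosomal and mitochondrial genes. With 1 library a group, treatment and library cannot be told apart. The genes of highest ratio were Ifng (883 against 79.1 CPM, log2 ratio 3.48, 2.42 to 4.81), Ccl3 (1402 against 136 CPM, 3.37) and Ccl4 (2971 against 317 CPM, 3.23). Without the cell with most UMIs in each library Ifng was at -0.06, Ccl3 at 3.26 and Ccl4 at 2.38. Those values of Ccl3 and Ccl4 rest on a second anti-PD-1 cell with 86 and 141 UMIs, and on 1 control Ccl3 UMI, raised to 3. Xcl1 was at 505 against 113 CPM (2.16, 1.24 to 3.25, and 1.66 without those cells). Sin3b and Pld3 were at 194 against 22.6 CPM and 169.6 against 22.6 CPM, from 2 UMIs each in the control.

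Lower in the anti-PD-1 cells were Itgb1, an integrin chain, at 91.8 against 260 CPM (-1.50, -2.37 to -0.63, and the same without the cell with most UMIs) and Rgs1, a regulator of chemokine signalling, at 452 against 1097 CPM (-1.28, -1.67 to -0.88, but 0.00 among cells with no Lyz2 or Csf1r UMI). Gyg, Fabp5 and H2-Aa, at -2.20, -1.50 and -1.30, were at 0.49, -0.15 and 0.14 without Cst3-high cells. Slamf6 was at 67.1 against 169.6 CPM (-1.34, -2.39 to -0.26), Gpr183, an oxysterol receptor, at 152 against 328 CPM (-1.11, -1.82 to -0.38), and Ccr7 at 173 against 328 CPM (-0.92, -1.61 to -0.21). Without Cst3-high cells Ccr7 was at 131 against 174 CPM (-0.41). Gzma was higher, at 187 against 67.8 CPM (1.46, 0.25 to 2.97), as was Ly6a (Sca-1), an interferon-inducible surface protein, at 1378 against 667 CPM (1.05).

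By lists, the cytotoxic genes had 18 of 21 measured above 0 in the anti-PD-1 cells, 5 over 2-fold higher and a median of 0.44. The inhibitory receptors had 8 of 10 above 0, 3 over 2-fold higher and a median of 0.67. Over all genes 1210 of 2079 were above 0 and 206 over 2-fold higher, with a median of 0.13. A single anti-PD-1 cell held 1124 of the 6571 UMIs of the cytotoxic list in these cells. Tnfrsf9 was at 198 against 79.1 CPM (1.32, 0.18 to 2.70) and Pdcd1 at 159 against 90.5 CPM (0.81, -0.29 to 2.11). The naive list had a median of 0.35 over 7 genes; Tcf7, of the memory list, was at -0.74 (-1.81 to 0.40). The interferon list had a median of 0.10 over 21 genes. For Tcf7 and Pdcd1 the intervals include no difference, which the UMIs of 26 control cells could not show at this depth.

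**Figure D5:**
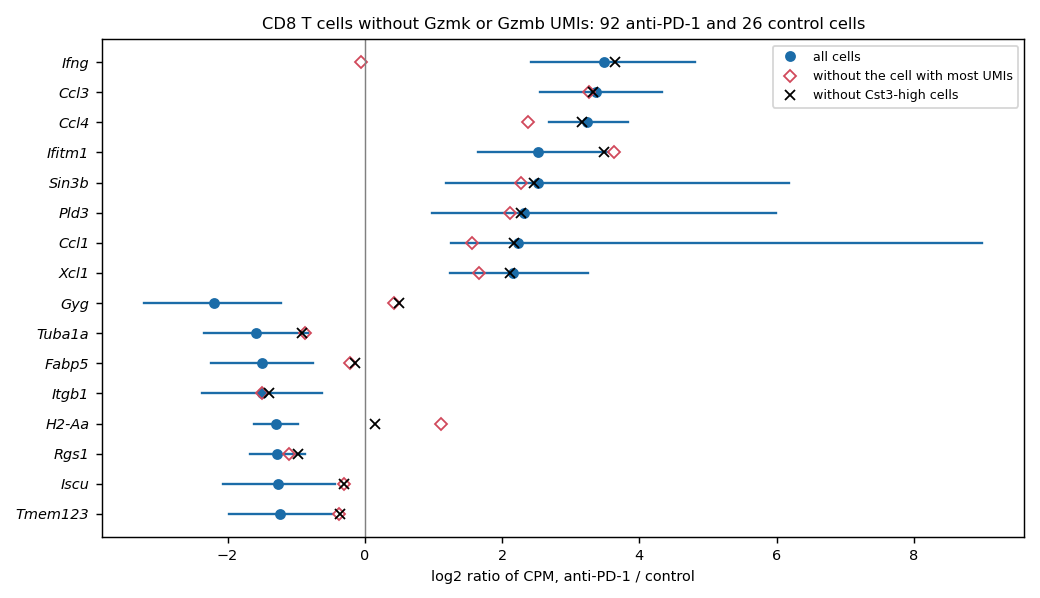
Log2 ratio of CPM between the anti-PD-1 library (92 cells) and the control library (26 cells) in CD8 T cells without Gzmk or Gzmb UMIs, for the 8 genes of highest and the 8 of lowest ratio that had at least 20 UMIs in all and reached 50 CPM in either library. Circles are all cells with 95% counting intervals (drawn to 9, which ends the line of Ccl1 early), diamonds leave out the cell with most UMIs of the gene in each library and crosses leave out Cst3-high cells. Ifng moves from 3.48 to -0.06 and Gyg from -2.20 to 0.43 without those single cells.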

How the data were processed

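Per the submitters' processing notes, the authors made the deposited counts with Cell Ranger 2.1 on mm10; each value is a whole-number UMI count of 1 gene in 1 barcode, not normalized, in matrices of 27998 genes and 737280 barcodes that include empty ones. The libraries held 5203415 (control) and 13717817 (anti-PD-1) UMIs over all barcodes. UMIs were summed over each set of cells and expressed as CPM. Ratios carry conditional binomial intervals, levels exact Poisson intervals and shares Clopper-Pearson intervals, at 95%. No doublet caller was run. Myeloid cells (no Cd3 UMI, at least 3 Lyz2 and Csf1r UMIs) served as background for free RNA, and cells were thinned at random to 1000 UMIs. With 1 library per group no test was possible, and no gene was tested. The calculation was tested on simulated counts.

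The cells and gene lists were chosen with earlier results of these data known. Named genes were up to 8 per list with the most UMIs, a fixed set, the 15 highest and 15 lowest anti-PD-1 ratios (at least 50 UMIs and 50 CPM) and the 8 highest and 8 lowest between libraries. Bach2, Cd247, Dapl1, Fasl, Gzmc, Havcr2, Ifit3, Igfbp4, Irf7, Lgals3, Phf11b and Zfp36 were named after their values were seen. Alternatives changed depth, filters, evidence for the cell type, scaling and free RNA. Those without Cst3-high cells and without the top cell of a gene were chosen after seeing the data. Gene bounds are from GENCODE M21 (GRCm38) and promoters from RefSeq (GRCm38.p6). T-cell receptor constant genes are not analysed here, and a few genes are not reported here. Python 3.11.15, numpy 2.4.6, pandas 2.3.3, scipy 1.17.1 and matplotlib 3.10.9 were used.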

Additional observations from a re-analysis of the deposited data

Results flagged for a closer look

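The log2 ratio of cells without to cells with Gzmk or Gzmb UMIs had opposite signs in the 2 libraries for 9 genes, and these differences between libraries were not tested. For the chemokines Ccl3, Ccl4 and Xcl1 it was 1.36, 0.56 and 3.39 in the anti-PD-1 library and -4.10, -4.23 and -1.91 in the control library. Ifng, the effector cytokine, gave 0.59 and -3.67. A single anti-PD-1 cell held 92.4% of the Ifng, 75.6% of the Ccl3 and 63.7% of the Ccl4 UMIs, and another 56.6% of the Xcl1 UMIs. In the control library 1 cell with Gzmb held 1865 of the 6048 UMIs of the cytotoxic list in granzyme cells. Of the memory list, which holds Xcl1, 1 control Gzmb cell held 78 of the 622 UMIs in granzyme cells. Its part in the Xcl1 value was not counted.

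Ikzf2 (Helios) gave 1.07 in the anti-PD-1 and -1.08 in the control library, Rgs16, a regulator of G-protein signalling, 1.26 and -1.25, and Izumo1r, the folate receptor FR4, 1.21 and -2.72. For Izumo1r the control value rests on 1 UMI in the cells without granzyme UMIs, at 11.3 CPM against 223 CPM. The list for CD4 and regulatory T cells was at 102 against 496 CPM in the control and 141 against 92.9 CPM in the anti-PD-1 library; its part in these values was not tested. Ly6c2 gave -1.24 and 0.56, and Rgs1 -0.94 and 0.91.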

How the results depend on the processing

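Of the shares, counts of genes past 2-fold and list medians under 17 alternatives, 148 values stayed within their limits, 39 moved and 0 reversed; for named genes 2566 stayed, 286 moved and 39 reversed. The cause of each change was not tested unless the alternative's construction shows it. Counts are given as higher and lower, in the anti-PD-1 comparison (448 and 263), the control comparison (51 and 156) and between libraries (206 and 62).

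With each cell thinned to 1000 UMIs the counts were 264 and 157, 8 and 53, and 52 and 19. The naive median in the anti-PD-1 library was 0.70. Gzmm reversed to 0.05, Ly6c1 to 0.39 and Il1b to -0.04, and between libraries Ccl1 to -0.24 and Fabp5 to 0.18. Thinning lowers the totals but not the floor of 3 UMIs, to which smaller counts were raised. Gzmm is treated above. Ly6c1 was already under that floor in the cells without granzyme UMIs, and Ccl1, with 1 UMI, in the control cells. The values 0.39 and -0.24 are therefore not read as reversals. With thinning before the rule the anti-PD-1 share was 18.2%. The counts were then 132 and 157, 10 and 15, and 29 higher between libraries. The naive median was 0.15 and the control memory median 0.56. Cst3 reversed to -0.39, H2-Eb1 to -0.03, Il1b to -0.26, Rab19 to 0.36, Spsb3 to 0.63, Fabp5 to -1.05 and, between libraries, Ccl1 to -2.02. The control Ccl1 count behind -2.02 is not given, so that value is not read as a reversal either.

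Without Cd4 or Foxp3 UMIs 97 control genes were lower. Without Lyz2 or Csf1r UMIs 33 control genes were higher and 129 between libraries, where Ifng was at -0.24, Fabp5 at 1.39, H2-Aa at 0.55 and Rgs1 at 0.00. With at least 2 Cd3 and 2 Cd8 UMIs 82 control genes were lower and 84 higher between libraries, and Cst3 was at -0.59, H2-Aa at -0.37, H2-Ab1 at -1.37, Cd74 at -0.92, H2-Eb1 at -0.42, Il1b at -0.08 and, between libraries, Iscu at 0.03. Without cells with Gzma the anti-PD-1 share was 6.90%, 754 anti-PD-1 genes were higher and 109 between libraries, with H2-Ab1 at -0.76, Cd74 at -1.41, H2-Eb1 at -0.07, Ccl3 at -0.25, Ifitm1 at -0.32 and, between libraries, Ifng at -0.55.

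Without ribosomal and mitochondrial genes in the totals 165 anti-PD-1 genes were lower. At 50 UMIs, which leaves fewer genes, 131 anti-PD-1 genes were higher and the naive median was 0.46. The control counts were then 10 and 35, and those between libraries 52 and 11. At 3 UMIs the counts were 3409 higher in the anti-PD-1 comparison, 2116 and 246 in the control comparison, and 2422 lower between libraries. The floor of 3 UMIs amounts to 10.6 CPM in anti-PD-1 cells without and 1.04 CPM in those with granzyme UMIs. In the control it amounts to 33.9 and 16.7 CPM. A gene with at most 3 UMIs in each set thus passed 2-fold by the floor alone, so the 3409, 2116 and 2422 are not read as differences. Without Cst3-high cells 32 control genes were higher, Cst3 was at -0.02, H2-Ab1 at -0.85 and Cd74 at -1.26, and between libraries Gyg at 0.49 and H2-Aa at 0.14. Without the top cell of each gene the anti-PD-1 counts were 192 and 474, with 19 higher in the control and 20 lower between libraries. Leaving out a cell takes a larger part of the smaller set, so part of these shifts is built in. Ccl3 was then at -0.30 and Fabp5 at -0.01, and between libraries Ifng at -0.06, Gyg at 0.43 and H2-Aa at 1.11.

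No paired analysis was possible because each group is 1 library, so there was no replicate to leave out. The control cells gave 88446 UMIs in all, which limits control values of rare genes.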
